A study of Mus musculus with 16 samples.

Results

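The genes described here are the inhibitors of cyclin-dependent kinases (CDK) and the core of the p53-RB axis, followed across 8 histone transgenes in mouse C3H10T1/2 cells, an established line of mesenchymal stem cell type. The 10 members were chosen by name: the Ink4 family (Cdkn2a, Cdkn2b, Cdkn2c, Cdkn2d), the Cip/Kip family (Cdkn1a, Cdkn1b, Cdkn1c), Trp53, its ubiquitin ligase Mdm2, and Rb1. They are 10 of the 20325 genes in the deposited table. In 9 of the 10 the mean over the 16 libraries reached 10, the level required for testing, and Cdkn1c did not.

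All 8 groups overexpressed a histone H3 transgene carried by a lentivirus, so the controls carry a transgene too. Transduction took 2 days and selection in 1.5 µg/ml puromycin another 4 days, after which 2 libraries of polyadenylated RNA were sequenced per group. The transgenes were H3.3 wild type, H3.3 G34W, H3.3 G34R, H3.3 K27R, H3.3 with G34W and K27R together, H3.3 with G34W and K36R together, and H3.1 either as wild type or with G34W. Each name gives the original residue, its position in the histone and the residue that replaced it. G34W and G34R are mutations known from bone and brain tumours, K27 is the residue methylated by the Polycomb complex PRC2, and K36 is the neighbouring lysine whose methylation opposes PRC2. The labels do not tell whether the 2 libraries of a transgene are separate cultures. The p-values then reflect no more than how these libraries vary, part of which can be technical.

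As background, the Ink4 proteins bind CDK4 and CDK6 and keep them from phosphorylating RB, and RB that stays unphosphorylated holds E2F factors back from the genes of DNA replication and cell division. The Cip/Kip proteins act mainly on CDK2 complexes, and Cdkn1a is a classic transcriptional target of p53. MDM2 marks p53 for degradation and is itself induced by p53. The Ink4 locus holds Cdkn2a and Cdkn2b side by side and is a textbook target of PRC2. Cdkn2a encodes both p16INK4a, an Ink4 inhibitor, and p19ARF, which inhibits MDM2, from separate first exons. The deposited values are summed per gene, so the share of each transcript is not analysed here.

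Start regions of the genes on which the results turn are shown from RefSeq on GRCm38.p6, a later build than the mm9 of the deposited values. RefSeq windows, which run from 250 bases before to 50 after an annotated start, were found for 8 of the 10 members, 11 windows in all. The 3 windows of the Ink4 locus are printed because Cdkn2a and Cdkn2b moved together, and they all lie on the minus strand. Cdkn2a window 1 (chr4:89294570-89294869) is the start farther upstream, known as that of p19ARF, Cdkn2a window 2 (chr4:89282143-89282442) is the start nearer to the shared exons, and the Cdkn2b window is chr4:89310983-89311282. Capitals mark an E2F motif, searched on both strands as TTTCCCGC, TTTCGCGC, TTTGCCGC or TTTGGCGC.
Cdkn2a window 1: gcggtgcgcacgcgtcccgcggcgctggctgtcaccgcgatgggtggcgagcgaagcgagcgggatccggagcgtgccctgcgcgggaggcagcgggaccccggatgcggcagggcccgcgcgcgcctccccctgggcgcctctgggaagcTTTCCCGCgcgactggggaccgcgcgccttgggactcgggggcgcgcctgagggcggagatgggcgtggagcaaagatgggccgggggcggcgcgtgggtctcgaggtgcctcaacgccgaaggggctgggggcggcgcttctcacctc
Cdkn2a window 2: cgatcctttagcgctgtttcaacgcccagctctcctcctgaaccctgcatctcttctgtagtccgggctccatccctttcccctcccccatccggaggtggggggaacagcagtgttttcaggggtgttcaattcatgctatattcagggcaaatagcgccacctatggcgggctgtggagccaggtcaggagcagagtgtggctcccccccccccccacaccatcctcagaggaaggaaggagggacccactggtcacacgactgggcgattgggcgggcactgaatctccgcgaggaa
Cdkn2b window: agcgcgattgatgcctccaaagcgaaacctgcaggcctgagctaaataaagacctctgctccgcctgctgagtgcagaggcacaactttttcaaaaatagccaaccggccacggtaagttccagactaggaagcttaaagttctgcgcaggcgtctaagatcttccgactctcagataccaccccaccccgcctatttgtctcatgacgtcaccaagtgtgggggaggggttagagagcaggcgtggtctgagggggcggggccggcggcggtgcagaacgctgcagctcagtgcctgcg

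Cdkn2a window 1 held 45 CG dinucleotides, at percentile 98.1 of all 32851 RefSeq windows, whose median was 7. The Cdkn2b window held 18 (percentile 70.3) and Cdkn2a window 2 held 12 (percentile 60.4). The single E2F match, TTTCCCGC, begins at base -99 of Cdkn2a window 1. Such a match was present in 744 of the 32851 windows (2.26%) and in none of the other 10 member windows, which says only that these letters are not in those windows.

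Trp53 acts through a response element of a pair of decamers, and its match upstream of Cdkn1a is printed because Cdkn1a is the best known p53 target among the members. The stretch is chr17:29090908-29090967 on the plus strand, and capitals mark the match, which has 1 mismatch. It starts at base -51 of Cdkn1a window 1 (chr17:29090729-29091028). Cdkn1a window 2 (chr17:29093519-29093818), at another annotated start of the gene, held no such match.
Cdkn1a stretch: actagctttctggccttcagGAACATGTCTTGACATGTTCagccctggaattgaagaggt

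A p53 motif without a gap and with at most 1 mismatch was found in 29 of the 32851 windows (0.0883%), and without a mismatch in 3 (0.00913%). A match is a description of the letters and not evidence of binding.

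Sequencing depth was estimated at 26.02 to 49.12 M reads per library from the size of 1 read in the deposited values. H3.3 G34W K36R and both H3.1 groups were the deepest (34.78 to 49.12 M reads in 6 libraries), and the remaining 10 libraries held 26.02 to 33.82 M. The first principal component, with 51.3% of the variance, put the same deeper 6 libraries (47 to 110.4) on one side and the other 10 (-74.1 to -30.3) on the other. For H3.3 wild type the 2 libraries agreed within sampling noise over 2745 whole-read genes (chi-square divided by its degrees of freedom 0.959, p = 0.94), and were counted as 1 sample. Over all 12435 genes with enough reads the same pair differed slightly more (1.23). Pairs of H3.3 G34R, H3.3 K27R, H3.3 G34W K27R and H3.3 G34W K36R were also close over whole-read genes (1.16 to 1.38), and over all genes gave 5.78, 3.14, 2.82 and 1.75 in that order, whereas those of both H3.1 groups and of H3.3 G34W were far apart (32.3 to 47.5). A fit that counts each of these 5 close pairs as 1 sample is therefore given beside the calls below. Of 12 mesenchymal markers 11 had a mean of at least 10, all but Nt5e (at most 15), with summed values of 809000 to 1400000 per library. Of other cell types, Epcam was at most 1.21, Ptprc at most 2.13 and Pecam1 at most 9.39. Some other markers of the same lists were higher. Cdh1 was 20 to 300, Krt14 up to 782, Cd68 12.5 to 55.8, Itgam up to 38.6 and Cdh5 up to 70. The blood and immune sum was 16.7 to 56.9. Sums of some marker lists moved with the groups. The epithelial sum ran from 22.2 in H3.3 G34W K27R to 978 in H3.3 wild type. The endothelial sum, in which Tek reached 3040, ran from 63.5 in H3.1 wild type to 3110 in H3.3 G34W. The adipocyte sum was 24.2 to 25.2 in H3.3 wild type and 2010 to 2030 in H3.3 G34W K27R, and the 2 libraries of H3.3 G34W stood at 8.75 and 5240, with Adipoq at up to 4080. In every other group the adipocyte sum was at most 44.7. The part of these markers in the results below was not tested. In bulk RNA fewer cells of a type and less RNA per cell cannot be told apart.

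Over the 8 groups all 9 tested members were called different by limma's F test with Benjamini-Hochberg adjustment over 12670 genes at a threshold of 0.05. As 66.6% of all genes were called, that count is not a result about the members. When each close pair was counted as 1 sample, Cdkn2a (adjusted p = 0.00806) and Cdkn2b (adjusted p = 0.00927) were the members still called by limma. Cdkn2a and Cdkn2b reached a mean of 10 through the groups where they were high, since each was below 10 in both libraries of either wild type histone.

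The Ink4 locus pair was at or near 0 under H3.3 wild type and present under every H3.3 mutant. Cdkn2a stood at 0.968 and 0 in the H3.3 wild type libraries, which is 1 read in all. It was 37.54 and 39.37 with H3.3 G34W, 142.3 and 138.9 with H3.3 G34R, 114.8 and 69.8 with H3.3 K27R, 426.7 and 456.3 with H3.3 G34W K27R, and 27.39 and 25.56 with H3.3 G34W K36R. On H3.1 it was 5.307 and 4.886 for wild type and 13.47 and 9.24 for G34W. No group overlapped its neighbour. The ascending order was H3.3 wild type, H3.1 wild type, H3.1 G34W, then H3.3 with G34W K36R, G34W, K27R, G34R and G34W K27R. Here and below, overlap of libraries is a description only, and the share of all genes without overlap was not counted.

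Cdkn2b, which encodes the Ink4 inhibitor p15, was at 0 in both H3.3 wild type libraries, where a floor of 3 reads corresponds to 2.9 and 2.91. It was 61.94 and 44.83 with H3.3 G34W, 161.7 and 169.1 with H3.3 G34R, 145.6 and 134.6 with H3.3 K27R, 758.8 and 796.9 with H3.3 G34W K27R, and 36.2 and 29.09 with H3.3 G34W K36R. With H3.1 it was 1.516 and 5.863 for wild type and 5.181 and 11.55 for G34W. The order of the groups was that of Cdkn2a, and only the 2 H3.1 groups overlapped. The group means of Cdkn2a and Cdkn2b on the log2(value + 1) scale correlated at r = 0.997 over 8 groups, and among 10719 genes each had the other as its closest match. Next came Dkk2 (0.936) and Vps18 (0.93) for Cdkn2a, and Vps18 (0.948) and Robo1 (0.93) for Cdkn2b. These points share libraries and depth.

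**Figure D1:**
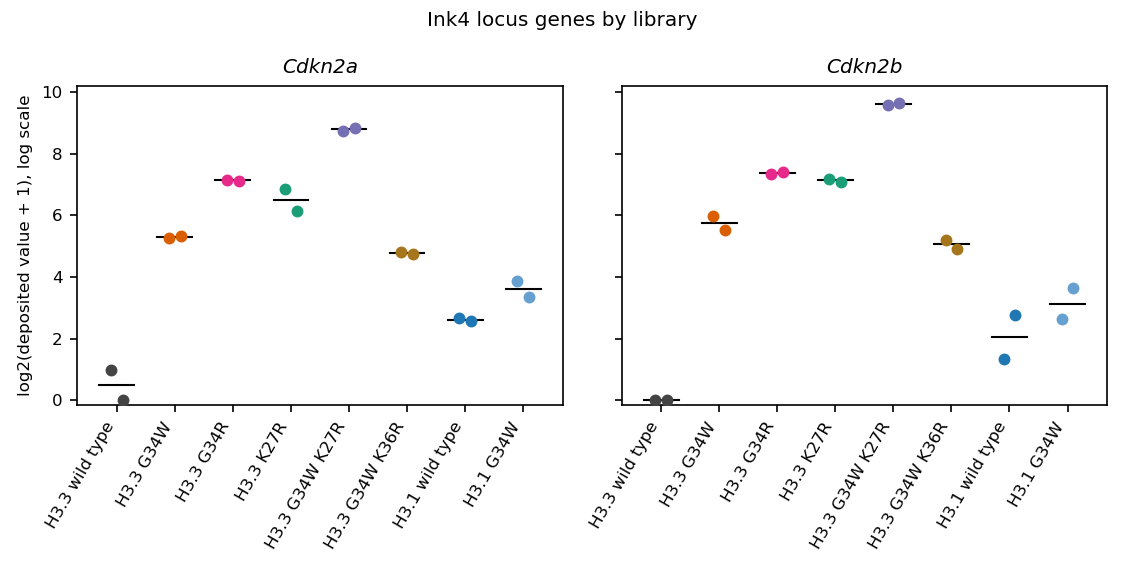
Cdkn2a and Cdkn2b in each library (points) and the mean of each group (bars), as log2 of the deposited value plus 1 on the vertical axis, by transgene. Both genes sit at or near 0 with H3.3 wild type and highest with H3.3 G34W K27R (426.7 and 456.3 for Cdkn2a, 758.8 and 796.9 for Cdkn2b, as deposited values).

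Against the single read of H3.3 wild type, Cdkn2a was 79.5 times as high with H3.3 G34W (95% counting interval 13.8 to 3172), 291 times with H3.3 G34R (51.7 to 11530) and 191 times with H3.3 K27R (34.4 to 7722). The ratio was 912 (164 to 36150) with H3.3 G34W K27R and 54.7 (9.41 to 2194) with H3.3 G34W K36R. Intervals and floors cover counting error only. Cdkn2b, compared with the floor of 3 reads per library, was at least 18.4-fold higher with H3.3 G34W, at least 56.9-fold with H3.3 G34R, at least 48.2-fold with H3.3 K27R, at least 268-fold with H3.3 G34W K27R and at least 11.2-fold with H3.3 G34W K36R.

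Both genes were called against H3.3 wild type in each of the 5 H3.3 mutants. With H3.3 G34W the limma adjusted p was 5.6e-04 for Cdkn2a and 0.00201 for Cdkn2b, and these were the 2 members called where 1.18% of all genes were. With H3.3 G34R (8.9e-05 for Cdkn2a and 4.9e-04 for Cdkn2b, limma adjusted p) and with H3.3 K27R (2.5e-04 and 3.7e-04) they were again the 2 members called, beside 2.72% and 2.75% of all genes. These comparisons share the H3.3 wild type libraries. With each close pair counted as 1 sample, no gene was called in any of these 3 comparisons. In a fit of the compared groups alone, neither was called for H3.3 G34W, where 0 genes were called at all. The same kind of fit called 8 members among 7687 genes for H3.3 G34R and 6 among 7019 for H3.3 K27R.

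G34R and G34W differed in the height of Cdkn2a. H3.3 G34R exceeded H3.3 G34W by 1.84 ± 0.31 (log2 fold change ± SE, limma adjusted p = 0.024), a 3.59-fold difference. It was 1 member called where 0.845% of all genes were. For Cdkn2b the difference was 1.63 ± 0.48 (limma adjusted p = 0.289), which did not pass. Leaving out either H3.3 G34R library, either H3.3 G34W K27R library or either H3.3 G34W K36R library ended the Cdkn2a call, as did a fit of these groups alone and counting close pairs as 1 sample.

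The locus was higher still when K27R was added to G34W, and the change with K36R did not pass the test. H3.3 G34W K27R exceeded H3.3 G34W by 3.49 ± 0.31 for Cdkn2a (limma adjusted p = 3.6e-05) and 3.86 ± 0.48 for Cdkn2b (2.8e-04), and exceeded H3.3 K27R by 2.29 ± 0.31 (6.6e-04) and 2.47 ± 0.48 (0.00431). H3.3 G34W K36R differed from H3.3 G34W by -0.52 ± 0.31 for Cdkn2a (limma adjusted p = 0.229) and -0.68 ± 0.48 for Cdkn2b (0.3). With close pairs counted as 1 sample Cdkn2a remained called for H3.3 G34W K27R over H3.3 G34W, near the threshold, while Cdkn2b did not. Neither was called against H3.3 K27R, where that fit called no gene at all.

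In the H3.1 groups the locus stayed low. H3.1 wild type was above H3.3 wild type for Cdkn2a, by a ratio of 10.5 (1.57 to 452.3, limma adjusted p = 0.0032). Cdkn2b was called too (limma adjusted p = 0.0219), with a mean 1.27 times the floor of 3 reads in H3.3 wild type. Its H3.1 wild type libraries stood at 1.516 and 5.863, the first below that floor, so the fold has no lower bound here. The 2 calls rest on 12 and 8 reads summed over 2 libraries, and with a pseudocount of 5 neither was called. H3.1 G34W exceeded H3.1 wild type by 1 ± 0.31 for Cdkn2a (limma adjusted p = 0.302) and 1.08 ± 0.48 for Cdkn2b (0.309), and neither passed.

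The rise did not extend to every neighbour of the locus. Mtap, an enzyme of methionine salvage and the gene beside Cdkn2a, was 6433.7 and 6424.7 under H3.3 wild type, where Cdkn2a and Cdkn2b were at or near 0. It was 4874.9 and 4243.7 with H3.3 G34W, 5384.9 and 5218.5 with H3.3 G34R, and 6428.2 and 6156.4 with H3.3 G34W K27R, and none of these was called against H3.3 wild type. Mtap rose with H3.3 G34W K36R, to 15058.3 and 15103.6 (1.23 ± 0.29, limma adjusted p = 0.0167), and with H3.1 wild type (0.86 ± 0.29, 0.0419). With H3.3 K27R Mtap was 12266.4 and 12214.5 (0.93 ± 0.29, 0.147). Dmrta1, the gene beside Cdkn2b on its other side, was 8.505 and 12.48 with H3.3 K27R and at most 1.036 in every other library. Among the other neighbours Mllt3 rose with H3.3 G34W K27R (1.14 ± 0.23, limma adjusted p = 0.00821). In that comparison 1 of 6 neighbours tested was called higher and 1 lower, where 14.3% of all genes were called. Ptplad2 was 922 to 959.3 with H3.3 wild type and 446.3 to 488.9 with H3.3 G34W K27R. In all 6 neighbours were called over the 8 groups, where 66.6% of genes were: Mllt3, Mtap, Elavl2, Klhl9, BC057079 and Ptplad2. With close pairs counted as 1 sample, 0 of the 6 were called over the 8 groups or in any comparison. Ifne, an interferon gene, reached at most 1.946.

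The other Ink4 genes, Cdkn2c (p18) and Cdkn2d (p19INK4d), took a different course. Cdkn2c was 1027 and 1023 under H3.3 wild type, 1140.3 and 1246.5 with H3.3 G34W, 1217.2 and 1158.4 with H3.3 G34R, and 1087.6 and 1120.5 with H3.3 K27R. It was 442.5 and 490.6 with H3.3 G34W K27R, 592.8 and 587.3 with H3.3 G34W K36R, 547.9 and 725.1 with H3.1 wild type and 518.1 and 438.9 with H3.1 G34W. The groups thus fell into a higher and a lower set of 4, whose libraries did not overlap. Within the higher set H3.3 G34R and H3.3 G34W overlapped, and within the lower set H3.3 G34W K27R overlapped H3.1 G34W.

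Cdkn2d was 1094.8 and 1056.8 under H3.3 wild type, 1407.7 and 1700.4 with H3.3 G34W, 1853 and 1896.7 with H3.3 G34R, and 960.1 and 841.3 with H3.3 K27R. It dropped to 301.7 and 317.2 with H3.3 G34W K27R, below every other library. With H3.3 G34W K36R it was 677 and 593.3, with H3.1 wild type 508.7 and 877.5, and with H3.1 G34W 596.8 and 449.7, and these 3 groups overlapped. H3.1 wild type also overlapped H3.3 K27R. Cdkn2c and Cdkn2d correlated at 0.92 over the 8 group means.

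In the double mutant H3.3 G34W K27R the Ink4 family therefore split in direction. Against H3.3 wild type Cdkn2c fell by 1.14 ± 0.19 on the log2 scale (limma adjusted p = 0.00325) and Cdkn2d fell by 1.79 ± 0.29 (0.00268), while Cdkn2a (3.0e-06) and Cdkn2b (7.6e-06) rose. With Mdm2 these made 5 members called, beside 14.3% of all genes. Against H3.3 G34W the changes were -1.35 ± 0.16 (1.8e-04) for Cdkn2c and -2.32 ± 0.24 (9.2e-05) for Cdkn2d, among 6 members called where 21.6% of genes were. Against H3.3 K27R they were -1.24 ± 0.16 (4.3e-04) and -1.54 ± 0.24 (0.0014), among 5 members called where 26.2% of genes were. Counting each close pair as 1 sample left Cdkn2a and Cdkn2b called against H3.3 wild type, and Cdkn2a and Cdkn2d against H3.3 G34W. No member was called against H3.3 K27R, where that fit called no gene at all.

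The effect of G34W depended on K27R by the interaction term, which asks whether adding G34W changes a gene by a different amount on a K27R tail. It was -1.46 ± 0.25 for Cdkn2c (limma adjusted p = 0.006), -2.06 ± 0.38 for Cdkn2d (0.00887) and 1.19 ± 0.16 for Mdm2 (0.00228). For Cdkn2a (-2.44 ± 0.49, adjusted p = 0.0138) and Cdkn2b (-3.28 ± 0.75, 0.0251) the term compares a start near 0 with one well above it, and its size depends on the pseudocount of 1. In all 5 members were called, beside 7.95% of genes, and 3 with a pseudocount of 5. With close pairs counted as 1 sample none was called, in a fit that called few genes at all.

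**Figure D2:**
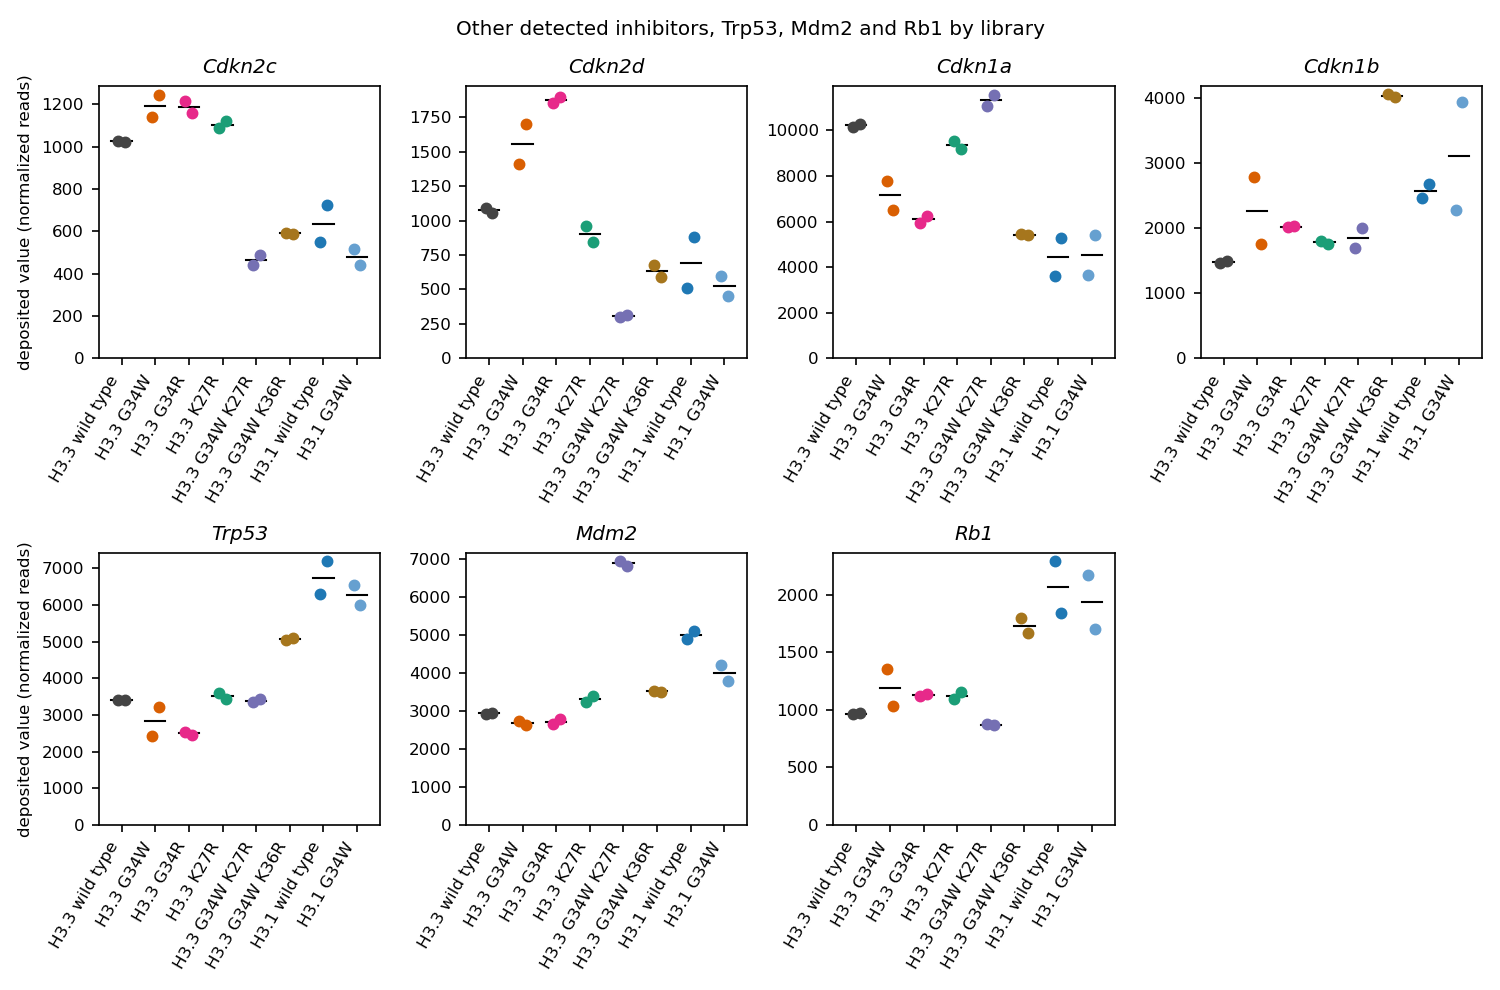
Deposited values (normalized reads, linear axes from 0) of Cdkn2c, Cdkn2d, Cdkn1a, Cdkn1b, Trp53, Mdm2 and Rb1 in each library (points), with the mean of each group (bars), by transgene. Cdkn2d is lowest (301.7 and 317.2) and Mdm2 highest (6958.1 and 6826.1) with H3.3 G34W K27R, and Trp53 and Rb1 are high in both H3.1 groups and H3.3 G34W K36R.

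Of the Cip/Kip inhibitors, Cdkn1a (p21) was well above the floor throughout. It was 10138.3 and 10306.6 under H3.3 wild type, 9550.9 and 9187.6 with H3.3 K27R and 11081.1 and 11556.2 with H3.3 G34W K27R, the 3 highest groups. It was 7767.5 and 6530.4 with H3.3 G34W, 5952 and 6252.3 with H3.3 G34R, 5468.5 and 5396.2 with H3.3 G34W K36R, 3628.7 and 5293 with H3.1 wild type and 3657.6 and 5434.1 with H3.1 G34W. Against H3.3 wild type it fell by 0.91 ± 0.26 with H3.3 G34W K36R (limma adjusted p = 0.0356) and by 1.22 ± 0.26 with H3.1 wild type (0.00569). The first call was lost in 9 of 27 alternatives, namely close pairs counted as 1 sample and omissions of single libraries. The second was lost in 2 of 27, with close pairs counted as 1 sample and in a fit of these groups alone. The values for H3.3 G34W (-0.52 ± 0.26, adjusted p = 0.432) and H3.3 G34R (-0.74 ± 0.26, 0.187) did not pass. With H3.3 G34R the value ran from -0.78 to -0.71 over 27 alternatives. Cdkn1a was called in 3 of these: wild type libraries counted separately, a replicate block and the compared groups alone, where more genes were called in all. From H3.3 G34W to H3.3 G34W K27R it rose by 0.67 ± 0.21 (limma adjusted p = 0.0455), a call lost in 14 of 27 alternatives (adjusted p 0.0179 to 0.636), among them no filter, quantile normalization and plain eBayes.

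Cdkn1b (p27) was lowest under H3.3 wild type, at 1465.1 and 1495.1. It was 2778.8 and 1752.1 with H3.3 G34W, 2013 and 2032.1 with H3.3 G34R, 1793.7 and 1761.8 with H3.3 K27R, 1699.1 and 1998.6 with H3.3 G34W K27R, 2465.5 and 2671.8 with H3.1 wild type and 2277.7 and 3932.6 with H3.1 G34W. H3.3 G34W K36R stood above all of these at 4048.5 and 4012.4, a rise of 1.44 ± 0.31 over H3.3 wild type (limma adjusted p = 0.0122) and 0.87 ± 0.25 over H3.3 G34W (0.027). Most neighbours in the order between the lowest and the highest group overlapped. Cdkn1c (p57), an imprinted growth inhibitor, was at 0 in all 16 libraries, where a floor of 3 reads corresponds to 2.27 to 3.74.

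Trp53 was 3408.9 and 3418.8 under H3.3 wild type, 2418.1 and 3226.8 with H3.3 G34W, 2545.7 and 2458.5 with H3.3 G34R, 3588 and 3429 with H3.3 K27R and 3349.5 and 3423.4 with H3.3 G34W K27R. It was higher at 5043 and 5102.5 with H3.3 G34W K36R, 6288 and 7193.1 with H3.1 wild type and 6541.4 and 5990.7 with H3.1 G34W. The increase over H3.3 wild type was 0.57 ± 0.17 with H3.3 G34W K36R (limma adjusted p = 0.0488) and 0.98 ± 0.17 with H3.1 wild type (0.00248), and that of H3.3 G34W K36R over H3.3 G34W was 0.86 ± 0.14 (0.0019). The call of Trp53 with H3.3 G34W K36R against H3.3 wild type was lost in 12 of 27 alternatives (highest adjusted p 0.714), among them no filter, quantile normalization and plain eBayes. With H3.3 G34W K27R the difference from H3.3 wild type was -0.01 ± 0.17 (0.976).

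Mdm2 had its own pattern. It was 2931.7 and 2937.6 under H3.3 wild type, 2740.3 and 2629.7 with H3.3 G34W, 2657.6 and 2787.6 with H3.3 G34R, 3233.8 and 3387.2 with H3.3 K27R and 3531.6 and 3496.9 with H3.3 G34W K36R. With H3.3 G34W K27R it reached 6958.1 and 6826.1, above H3.1 wild type (4895.4 and 5110.5) and H3.1 G34W (4202.7 and 3788.5). The rise with H3.3 G34W K27R was 1.23 ± 0.13 over H3.3 wild type (2.35-fold, limma adjusted p = 2.0e-04), 1.36 ± 0.10 over H3.3 G34W (1.4e-05) and 1.06 ± 0.10 over H3.3 K27R (1.0e-04). None of these was called with close pairs counted as 1 sample, a fit that called no gene at all against H3.3 K27R.

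Rb1 was 965.1 and 970.6 under H3.3 wild type, 1354 and 1029 with H3.3 G34W, 1117 and 1139.2 with H3.3 G34R, 1093.9 and 1151.6 with H3.3 K27R and 878.1 and 864.1 with H3.3 G34W K27R. It was 1795.2 and 1668.8 with H3.3 G34W K36R, 2295.6 and 1843.9 with H3.1 wild type and 2168.6 and 1704.2 with H3.1 G34W, and these 3 groups stood above the other 5. It rose by 0.84 ± 0.21 with H3.3 G34W K36R (limma adjusted p = 0.0226) and by 1.09 ± 0.21 with H3.1 wild type (0.00363). Rb1 overlaps Lpar6 and Rcbtb2 on the opposite strand, and whether counting used strand is not stated. Lpar6 was 482.3 to 905.8 and Rcbtb2 1056 to 2776 over the libraries. Lpar6 was 790.7 and 905.8 with H3.1 wild type, and 556.4 and 581 with H3.3 G34W K36R. Rcbtb2 was 2776 and 1345 with H3.3 G34W, and 1062 and 1056 with H3.1 wild type. The part of these genes in the Rb1 values was not tested.

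The closest patterns to these members over the 8 group means, among 10719 genes, were Lyz2 (r = 0.983) for Cdkn2c and Pkn3 (0.982) for Cdkn2d. For Cdkn1a it was Pde3b (0.982), for Cdkn1b Rab11fip2 (0.986), for Trp53 Eif3a (0.994), for Mdm2 Hsp90b1 (0.983) and for Rb1 Htatsf1 (0.99). Among the members Trp53 and Rb1 correlated at 0.85, and Cdkn1a and Rb1 at -0.94. All of these are descriptions over 8 points that share libraries and depth.

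**Figure D3:**
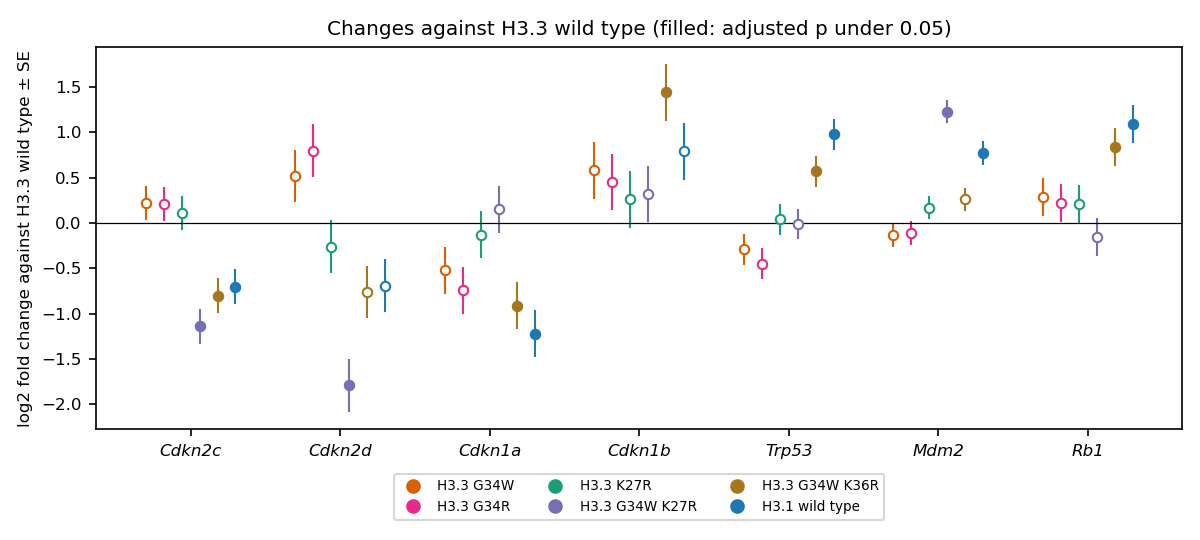
Log2 fold changes against H3.3 wild type (vertical axis, points with SE from limma) for the 7 members that were above 0 in H3.3 wild type throughout, by transgene (colours). Filled points have an adjusted p under 0.05, and in H3.3 G34W K27R these are Cdkn2c (-1.14), Cdkn2d (-1.79) and Mdm2 (1.23).

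Taking the comparisons as wholes, H3.3 G34W K36R against H3.3 wild type had 7 members called beside 17.1% of all genes, namely Cdkn2a, Cdkn2b, Cdkn2c, Cdkn1a, Cdkn1b, Trp53 and Rb1. Cdkn2c fell by 0.80 ± 0.19 (limma adjusted p = 0.0197). Without H3.3 G34W K36R replicate 1 or 2 the count was 2 members, among 814 or 806 genes where there had been 2169, and with close pairs counted as 1 sample it was 0 members among 27 genes. Against H3.3 G34W, 6 members were called beside 30.6% of genes. They were Cdkn2c (-1.01 ± 0.16), Cdkn2d (-1.29 ± 0.24), Cdkn1b, Trp53, Mdm2 (0.39 ± 0.10) and Rb1 (0.55 ± 0.17, a call lost in 11 of 27 alternatives). That count was 3 without H3.3 G34W K36R replicate 1 or 2, 2 in a fit of these groups alone and 0 with close pairs counted as 1 sample. The genes called fell as well, from 3882 to 1720 or 1645, to 1369 and to 132.

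H3.1 wild type against H3.3 wild type had 7 members called beside 33.4% of all genes. Cdkn2a, Cdkn2b, Trp53, Mdm2 (0.77 ± 0.13, limma adjusted p = 0.00169) and Rb1 were higher, and Cdkn2c (-0.70 ± 0.19, 0.0189) and Cdkn1a were lower. None was called with close pairs counted as 1 sample (621 genes called), or in a fit of these groups alone (1332 genes called). This comparison and those of H3.3 G34W K36R run across the 6 deeper libraries that the first principal component sets apart. The split is the same as the groups, so depth and transgene cannot be told apart there, and no value within one side of the split can be had.

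The comparison of G34W with wild type on H3.1 lies within those 6 libraries and had no member called, where 0% of all genes were called. At an unadjusted p under 0.05 limma had 2015 genes and 4 members: Cdkn2a, Cdkn2b, Cdkn2c (-0.40 ± 0.16, adjusted p = 0.304) and Mdm2 (-0.33 ± 0.10, 0.302). Without H3.1 wild type replicate 1 the members called were 3, among 2267 genes, and without H3.1 G34W replicate 1 there was 1, among 2477 genes. The effect of G34W differed between H3.3 and H3.1 by -3.73 ± 0.49 for Cdkn2a (limma adjusted p = 0.023) and -4.66 ± 0.75 for Cdkn2b (0.0491), the 2 members called where 0.197% of genes were. Both terms rest on the H3.3 wild type values at or near 0, and with a pseudocount of 5, or with close pairs counted as 1 sample, neither was called.

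Downstream of RB, E2F target genes were low in H3.3 G34W K27R. Of 22 targets tested, 18 fell and 0 rose against H3.3 wild type, where 14.3% of all genes were called in either direction. The median log2 fold change was -1.93 beside -0.01 for all genes. Ccna2, the cyclin of S phase, went from 5230.3 and 5130.6 to 309.6 and 326.8 (-4.02 ± 0.50, limma adjusted p = 5.6e-04). The thymidine kinase Tk1 fell by 3.96 ± 0.56 (0.00118) and the mitotic kinase Cdk1 changed by -2.91 ± 0.50 (0.00355). Against H3.3 K27R all 22 fell (median -1.93, 26.2% of all genes called) and against H3.3 G34W 16 fell (median -1.5, 21.6% of all genes called). When close pairs counted as 1 sample, none was called against H3.3 wild type or H3.3 K27R, and Tk1 and Ccna2 were called against H3.3 G34W. That fit called no gene at all against H3.3 K27R and few genes against H3.3 wild type. The lack of calls there is therefore not a result about these targets.

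No E2F target was called in the other comparisons with H3.3 wild type. Their medians were -0.53 with H3.3 G34W, -0.51 with H3.3 G34R, -0.07 with H3.3 K27R, -0.64 with H3.3 G34W K36R and 0.55 with H3.1 wild type. The share of all genes called was 1.18%, 2.72% and 2.75% in the first 3 of these, so a count of 0 of 22 is near the background there. With H3.3 G34W K36R and H3.1 wild type it was 17.1% and 33.4%, and 0 of 22 lies below that background. The medians of all genes there were -0.01 and -0.02, beside -0.64 and 0.55 for the targets. The fit takes 1 spread per gene from all groups, including pairs that stood far apart. So 0 of 22 is not read there as a lack of change. Ccna2 was 5475 and 5603.4 with H3.3 G34R and 4645.2 and 4578.8 with H3.3 K27R. In H3.3 G34W the 2 libraries stood far apart, at 3231.5 and 6881.1 for Ccna2.

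**Figure D4:**
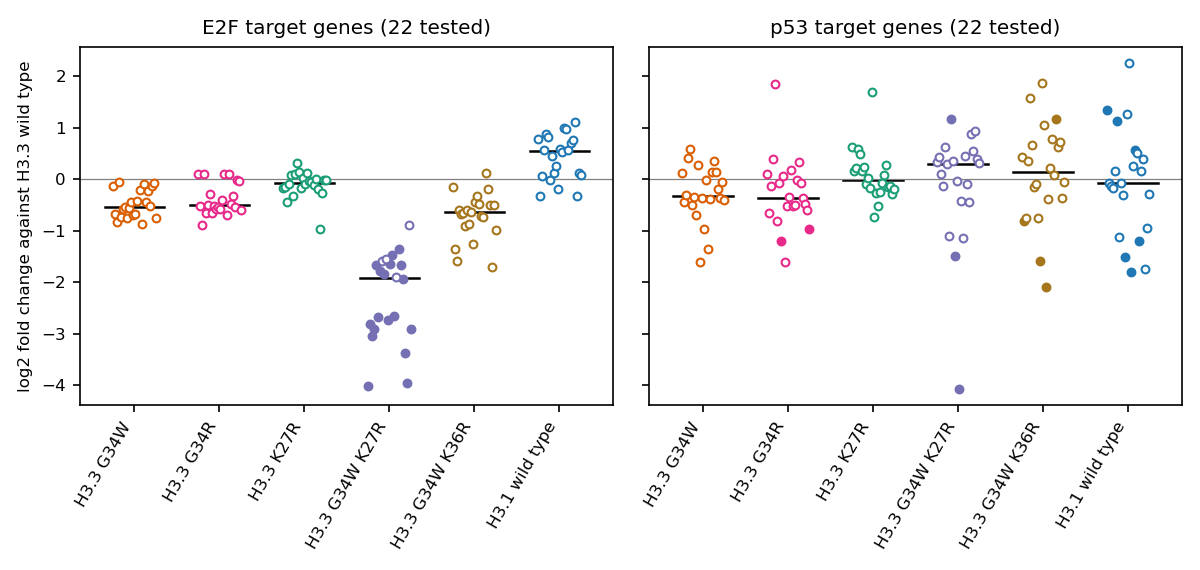
Log2 fold changes against H3.3 wild type (vertical axis) of 22 E2F target genes (left) and 22 p53 target genes (right), 1 point per gene, by transgene. Filled points have a limma adjusted p under 0.05 and bars are medians, which for E2F targets run from -1.93 with H3.3 G34W K27R to 0.55 with H3.1 wild type.

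The factors and kinases that link the inhibitors to these targets moved in part. Of 12 pocket proteins, E2F and DP factors, 4 fell and 0 rose with H3.3 G34W K27R against H3.3 wild type, with a median of -0.66, where 14.3% of all genes were called. E2f2, an activator, fell by 3.21 ± 0.48 (limma adjusted p = 0.00161) and E2f8, an atypical repressor that is itself cell cycle regulated, changed by -3.26 ± 0.63 (0.00647). E2f6 (0.87 ± 0.28, 0.0361) and E2f5 (0.62 ± 0.15, 0.0108) were among 3 of the 12 that rose with H3.1 wild type, a share below the 33.4% of all genes called there. Of 8 D and E cyclins and their kinases, Ccne2 fell with H3.3 G34W K27R by 2.91 ± 0.71 (0.0213). Ccnd2, a D cyclin that activates CDK4 and CDK6, rose by 1.36 ± 0.26 (0.00604) there, by 2.02 ± 0.26 (9.4e-04) with H3.3 G34W K36R and by 2.03 ± 0.26 (4.0e-04) with H3.1 wild type. Ccne1 fell by 1.79 ± 0.51 (0.0309) and Cdk6 rose by 1.47 ± 0.44 (0.0379) between H3.3 G34W and H3.3 G34W K27R. With close pairs counted as 1 sample, 1 of these calls was kept, that of Ccnd2 with H3.1 wild type.

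Among p53 target genes calls went in both directions. Of 22 p53 target genes tested, 1 rose and 2 fell with H3.3 G34W K27R against H3.3 wild type (median 0.3), 1 rose and 3 fell with H3.3 G34W K36R (0.15), and 3 rose and 3 fell with H3.1 wild type (-0.07). All genes were called at 14.3%, 17.1% and 33.4% in these comparisons, so these counts are near the background. With H3.3 G34R 0 rose and 2 fell (-0.36, 2.72% of all genes called), and with H3.3 G34W and H3.3 K27R none was called (-0.32 and -0.02). Mdm2 and Cdkn1a are members and are not counted in this list. Perp, a gene of cell adhesion and apoptosis, fell in H3.3 G34W K27R from 276.8 and 296.4 to 13.31 and 19.46 (-4.07 ± 0.79, limma adjusted p = 0.0068). Phlda3, an inhibitor of AKT, fell by 2.10 ± 0.25 with H3.3 G34W K36R (5.9e-04) and by 1.80 ± 0.25 with H3.1 wild type (6.0e-04), while Ccng1 (1.12 ± 0.21, 0.0032) and the polymerase Polk (0.56 ± 0.15, 0.018) rose with H3.1 wild type. Against H3.3 G34W, 6 rose and 2 fell both with H3.3 G34W K27R (median 0.28, 21.6% of all genes called) and with H3.3 G34W K36R (median 0.47, 30.6% of all genes called). With close pairs counted as 1 sample, Phlda3 with H3.1 wild type was the only p53 target called in any of the comparisons between groups.

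Of 11 p53 partners and regulators tested, Trp63, the p53 relative of epithelial cells, was called in 4 of the comparisons with H3.3 wild type. It was 589.5 and 612.2 under H3.3 wild type and changed by -2.21 ± 0.41 with H3.3 G34R (limma adjusted p = 0.0215), -3.6 ± 0.41 with H3.3 G34W K27R (3.5e-04), -2.35 ± 0.41 with H3.3 G34W K36R (0.00473) and -4.11 ± 0.41 with H3.1 wild type (1.1e-04). The summed epithelial markers were 940 to 978 under H3.3 wild type, 171 to 210 with H3.3 G34R, 22.2 to 27.2 with H3.3 G34W K27R, 79.2 to 84.6 with H3.3 G34W K36R and 58.6 to 66.7 with H3.1 wild type. With H3.3 K27R the sum was 867, while Trp63 stood at 240.3 and 251.8. Krt14 reached 782 and Cdh1 300 at most, while Epcam stayed at or below 1.21, and the part of these markers in the result was not tested. With close pairs counted as 1 sample the Trp63 call with H3.1 wild type was the only one of this list that was kept. The checkpoint kinase Chek1 fell by 2.09 ± 0.48 with H3.3 G34W K27R (0.0163). The phosphatase Ppm1d, which switches p53 off, changed by -0.56 ± 0.15 with H3.3 G34W K36R (0.0304) and by -0.56 ± 0.15 with H3.1 wild type (0.0188), and Rfwd2, another ubiquitin ligase for p53, rose by 0.49 ± 0.12 with H3.1 wild type (0.0131).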

How the data were processed

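Polyadenylated RNA of 16 libraries, 2 for each of 8 groups named in the labels, was analysed from a deposited table of 20325 genes. Per the submitters' processing notes the authors used RSEM 1.2.4 and mm9; aligner, annotation, filters and strand are not given in the sources used here. The deposited signal is a median-normalized expected count, a constant step per library times RSEM's estimate. Of values above 0, 41.7% to 47.6% were within 0.01 reads of a whole read, so whole counts were not recovered and no count model was run. A second deposited table of 180 genes holds no member.

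Values were tested as log2(value + 1), a scale that understates changes of low genes, and the 12670 genes whose mean reached 10 were kept. limma 3.58.1 (R 4.3.3, statmod 1.5.0) was run with lmFit and a trended, robust eBayes step over the 8 groups together, two-sided, with Benjamini-Hochberg adjustment over all genes and a threshold of 0.05. Averaging the H3.3 wild type pair left 15 samples and 7 residual degrees of freedom. Where the table has older symbols (BC057079, Ptplad2, Rfwd2) these were used. The fit was also run on simulated data, with independent noise of the same spread for a gene in every library. That run cannot speak for pairs of unequal spread such as those here.

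The members and lists were chosen with earlier results of these data known. Genes named are the members, the 3 closest patterns of each (the first is printed beyond Cdkn2a and Cdkn2b), the Ink4 locus neighbours, and of each list the 4 with the smallest adjusted p over the 8 groups; a gene that the rule named is not reported here. Same-numbered replicates were checked for pairing: correlations of their deviations ran from -0.265 to 0.0598 over 28 pairs of groups, so the main fit has no block. Alternatives were pseudocounts of 0.5 and 5, no filter and a mean of at least 50, TMM and quantile scaling, plain eBayes, a replicate block, the compared groups alone, wild type libraries counted separately, close pairs counted as 1 sample, and omission of each library in turn.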

Additional observations from a re-analysis of the deposited data

Results flagged for a closer look

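The effect of G34W was tested for a difference between a K27R tail and a tail with K27. By limma's interaction term 5 members differed, where 7.95% of all genes were called. The differences on the log2 scale were -2.44 for Cdkn2a, -3.28 for Cdkn2b, -1.46 for Cdkn2c, -2.06 for Cdkn2d and 1.19 for Mdm2. Between H3.3 and H3.1 the effect of G34W differed by -3.73 for Cdkn2a and -4.66 for Cdkn2b, where 0.197% of all genes were called. In both Cdkn2a and Cdkn2b the H3.3 wild type values enter at or near 0, so the size of these terms follows the pseudocount. None of the terms was called with close pairs counted as 1 sample. That fit called few genes at all for the term with K27R and none for the term with histone type.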

How the results depend on the processing

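Of the counts of members called, 326 of 377 alternatives stayed within 1.5 times the main count, and 51 did not. Of 3393 values of single members, 3165 kept their direction and their side of the threshold, 168 lost and 40 gained a call, and 20 changed sign. Where the 5 close pairs became 1 sample each, which leaves 3 residual degrees of freedom, the count over the 8 groups went from 9 to 2, that of H3.3 G34W K27R from 5 to 2 against H3.3 wild type and from 6 to 2 against H3.3 G34W, and the counts of all the other comparisons and interactions to 0. With the compared groups alone, the count was 0 for H3.3 G34W and for H3.1 wild type against H3.3 wild type, 8 for H3.3 G34R and 6 for H3.3 K27R against H3.3 wild type, 0 for H3.3 G34R and 2 for H3.3 G34W K36R against H3.3 G34W, and 0 for the interaction with histone type. Counting the wild type libraries separately gave 4 for H3.3 G34R, among 1313 genes called where there had been 344. A pseudocount of 5 gave 3 for the interaction with K27R and 0 for that with histone type, and the latter was 1 with no filter and 1 with a mean of at least 50. Beyond the number of samples, the cause was not tested.

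Leaving out each library gave 8 to 9 members over the 8 groups. Against H3.3 wild type it gave 2 to 2 for H3.3 G34W, H3.3 G34R and H3.3 K27R, 5 to 5 for H3.3 G34W K27R, 2 to 8 for H3.3 G34W K36R and 7 to 8 for H3.1 wild type. It gave 0 to 3 for H3.1 G34W relative to H3.1 wild type, and against H3.3 G34W 0 to 1 for H3.3 G34R, 5 to 7 for H3.3 G34W K27R and 3 to 6 for H3.3 G34W K36R. Against H3.3 K27R it gave 5 to 5, and for the interactions 3 to 5 with K27R and 0 to 4 with histone type. A group left with 1 library is assumed to vary like the others, and the number of all genes called moved as well.

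The sign changes were all in values not called. Quantile normalization gave 0.01 for Trp53 in H3.1 G34W relative to H3.1 wild type, and TMM 0.00 for Cdkn2c in H3.3 G34R against H3.3 G34W. The others appeared when 1 library was left out, over which the values ran as follows. Trp53 ran from -0.03 to 0.00 in H3.3 G34W K27R against H3.3 wild type. In H3.1 G34W relative to H3.1 wild type the ranges were -0.76 to 0.03 (Cdkn2d), -0.26 to 0.31 (Cdkn1a), -0.17 to 0.62 (Cdkn1b) and -0.27 to 0.08 (Rb1). In H3.3 G34R against H3.3 G34W they were -0.07 to 0.06 (Cdkn2c), -0.46 to 0.21 (Cdkn1b), -0.37 to 0.05 (Trp53), -0.01 to 0.05 (Mdm2) and -0.26 to 0.13 (Rb1). Cdkn1b ran from -0.59 to 0.07 for H3.3 G34W K27R against H3.3 G34W, from -0.07 to 0.17 against H3.3 K27R and from -0.75 to 0.04 in the interaction with histone type, where Trp53 ran from -0.02 to 0.39.

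With a replicate block the count was 9 over the 8 groups. Against H3.3 wild type it was 3 for H3.3 G34R, 8 for H3.3 G34W K36R and 9 for H3.1 wild type, and it was unchanged elsewhere. The number of all genes called rose as well, from 344 to 1140 with H3.3 G34R and from 2169 to 3992 with H3.3 G34W K36R. With H3.1 wild type it rose from 4229 to 6035. The numbers do not pair the libraries. Depth limits Cdkn2a and Cdkn2b in H3.3 wild type, where 1 read and 0 reads were seen.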
